A study of Mus musculus with 2 samples.

Results

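The cadherin and protocadherin genes of the feature list are described here across 2 clones of induced myogenic progenitor cells (iMPCs), mouse fibroblasts converted into proliferating muscle progenitors. Members were taken by symbol, as every numbered Cdh gene other than Cdh15 and every Pcdh gene, which gave 92 of the 25906 genes in the files. They comprise 22 Cdh genes, 12 Pcdh genes outside the clusters, and 14 Pcdha, 22 Pcdhb and 22 Pcdhg genes of the clustered protocadherins. Each clone gave 1 droplet-based single-cell library that counts RNA molecules from their 3′ ends by unique molecular identifier (UMI). One clone is labelled MyoD-WT and the other MyoD-KO, both carry the strain label Myod1tm1Jae, and both came from mouse embryonic fibroblasts (MEFs) by Myf6 overexpression. Both were at passage 4 in medium with 5 µM forskolin, 5 µM RepSox, 3 µM CHIR99021 and 10 ng/mL bFGF. A clone is a single lineage and each genotype has 1 library, so every difference below is between these libraries, has no replicate check and carries no p-value.

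Classical cadherins are calcium-dependent adhesion proteins that bind cadherins on a neighbouring cell and connect through catenins to actin. In muscle, N-cadherin (Cdh2) and M-cadherin (Cdh15) are known at contacts between progenitors and between progenitors and fibres. Protocadherins lack the catenin-binding tail, and the clustered genes are best known for giving neurons different combinations of surface proteins. The Pcdha and Pcdhg genes splice their own variable exon to exons shared by the whole cluster, whereas each Pcdhb gene is a single exon.

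Cells were placed in 3 gates that use no member gene. Levels are given as CPM, the UMIs of a gene per 1000000 UMIs of the cell or group. A muscle-rich cell has at least 2% of its UMIs in 34 sarcomere genes, a Myog+ cell is any other cell with at least 200 CPM of Myog, and a Pax7+ cell is any remaining cell with at least 2 UMIs and 50 CPM of Pax7. MyoD-WT held 4300 Pax7+, 967 Myog+ and 1260 muscle-rich cells, MyoD-KO held 3024, 822 and 1108, and 789 and 684 cells were in no gate. The median depth was 35516 UMIs per kept cell in MyoD-WT and 40427 in MyoD-KO. Myod1 itself was counted at 162 CPM in MyoD-WT and 63.3 CPM in MyoD-KO, with a UMI in 90.1% and 78.3% of cells. The extent of the deletion in this allele is not given in the labels, and a 3′ tag outside it checks nothing, so the genotype names are used as labels. The clones also differ in 4 Y-linked genes, which summed to 186 CPM in MyoD-WT and 1.65 CPM in MyoD-KO, with Xist at 0 in both. Differences that come with the clone, its sex chromosomes or the Myod1 allele cannot be told apart. The doublet caller marked only 2 MyoD-WT cells and is not taken to have worked there. Of 14 barcodes that the libraries share, 9 were kept in both. Endothelial and blood marker lists each summed to at most 3.37 CPM in every gate, the epithelial list to at most 10.3 CPM and the Schwann list to at most 17.5 CPM. The neural list summed to 47.4 CPM in MyoD-WT and 59.3 CPM in MyoD-KO Pax7+ cells. It summed to 27.5 and 30.6 CPM in Myog+, 8.73 and 6.80 CPM in muscle-rich cells, and 54.2 and 97.7 CPM in cells of no gate. The smooth muscle and pericyte list summed to 765 CPM in MyoD-WT and 188 CPM in MyoD-KO Pax7+ cells and to 2122 and 816 CPM in muscle-rich cells. The myocyte list, which holds Myog, summed to 485 and 2786 CPM in Pax7+ cells. Their part in the results was not tested. The 10-gene fibroblast list summed to 409, 145 and 172 CPM in MyoD-WT Pax7+, Myog+ and muscle-rich cells and to 1337, 437 and 330 CPM in MyoD-KO. In cells of no gate it summed to 405 CPM in MyoD-WT and 2565 CPM in MyoD-KO. Its part in the results was not tested beyond leaving out cells by 2 rules on fibroblast genes.

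The 250 bases before the annotated start are shown for members at 10 CPM or more in any gate that differed at least 2-fold between the libraries in Pax7+ cells. They are given as far as the RefSeq promoter table (GRCm38.p6) holds them. Cdh2 also met this rule, but genes on its chromosome, which also holds the clustered protocadherins, were left out. That table matched 21 of the 92 members, and for Pcdh9 its first listed start is used. Each is read 5′ to 3′ on the gene's strand, with capitals at each match to CANNTG, the E-box pattern that MyoD-family factors are known to bind and which reads the same on both strands.
Pcdh15 chr10:73821617-73821866 (plus strand): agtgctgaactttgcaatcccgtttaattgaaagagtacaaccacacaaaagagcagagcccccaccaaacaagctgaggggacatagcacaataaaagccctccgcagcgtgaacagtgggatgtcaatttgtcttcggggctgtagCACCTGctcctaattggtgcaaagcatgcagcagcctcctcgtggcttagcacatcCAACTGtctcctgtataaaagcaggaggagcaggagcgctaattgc
Pcdh19 chrX:133688994-133689243 (minus strand): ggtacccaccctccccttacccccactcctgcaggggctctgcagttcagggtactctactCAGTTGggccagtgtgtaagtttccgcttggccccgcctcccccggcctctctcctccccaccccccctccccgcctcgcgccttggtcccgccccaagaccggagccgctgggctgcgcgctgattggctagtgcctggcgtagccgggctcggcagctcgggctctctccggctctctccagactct
Cdh6 chr15:13173676-13173925 (minus strand): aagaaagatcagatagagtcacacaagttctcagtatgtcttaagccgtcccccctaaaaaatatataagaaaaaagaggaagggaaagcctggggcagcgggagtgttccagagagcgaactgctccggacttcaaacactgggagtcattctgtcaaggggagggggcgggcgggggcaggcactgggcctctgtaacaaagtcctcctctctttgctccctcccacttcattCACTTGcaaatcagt
Pcdh9 chr14:93890680-93890929 (minus strand): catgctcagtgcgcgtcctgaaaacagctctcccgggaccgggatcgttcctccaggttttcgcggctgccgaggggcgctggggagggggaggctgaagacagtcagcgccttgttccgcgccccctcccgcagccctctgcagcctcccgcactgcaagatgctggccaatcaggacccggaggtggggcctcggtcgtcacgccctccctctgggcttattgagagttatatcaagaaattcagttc
Pcdh15 held 2 matches, Pcdh19 and Cdh6 held 1 each and Pcdh9 held 0. Over all 32851 promoters of the table, 66.2% hold a CANNTG in the same 250 bases, with a median of 1. One of the Pcdh15 matches is CACCTG, which on either strand (CACCTG or CAGGTG) is in 17.2% of all promoters. CAGCTG, in 13.0% of promoters, and CTTTGAT or its reverse ATCAAAG, in 3.21%, were in none of the 4. CTTTGAT is a pattern bound by TCF/LEF factors, which act in the pathway that CHIR99021 switches on. A match is a description of letters, and its absence here says nothing of a factor's binding elsewhere.

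Most members were counted at under 1 CPM. Of the 92, 11 reached 10 CPM in at least 1 of the 6 library-by-gate groups, 19 more reached 1 CPM and 62 stayed below it. The 11 were Cdh2, Cdh6, Cdh11, Cdh13 and Cdh23 and the non-clustered Pcdh7, Pcdh9, Pcdh15, Pcdh17, Pcdh18 and Pcdh19. Just inside the 1 CPM line lay Pcdhga2 at 1.00 CPM and just outside it Cdh7 at 0.974 CPM, both as the highest level in any gate. Cdh26, Pcdha2, Pcdha7, Pcdhac1 and Pcdhb1 had no UMI in the kept cells of either library, where a count of 0 allows up to 3 UMIs per library. All intervals and floors given here cover counting error only. Levels are per UMI total and not per gene length, so they compare groups of cells for 1 gene, and where genes are set beside each other it is the UMIs counted that are compared.

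**Figure D1:**
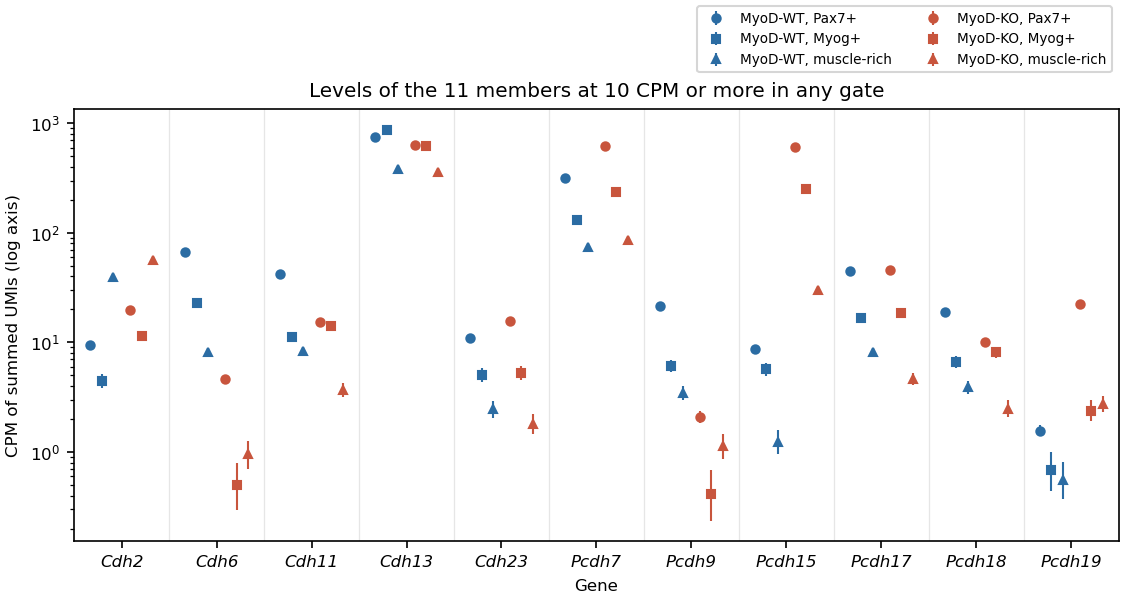
CPM of summed UMIs (log axis) of the 11 members at 10 CPM or more, by library (colour) and gate (symbol), with 95% Poisson intervals of the count. Pcdh15 stands at 604 CPM in MyoD-KO Pax7+ cells against 8.65 CPM in MyoD-WT, Cdh6 at 4.64 against 66.4 CPM, and Cdh2 alone is highest in muscle-rich cells of both libraries.

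In Pax7+ cells, 12 members differed at least 2-fold between the libraries with at least 1 CPM in the higher, of 30 that reached 1 CPM in either. By the same rule 25.7% of all 12515 genes at that level differed. Pcdh15, Pcdh19, Cdh2 and 5 Pcdhg genes were higher in MyoD-KO, and Cdh6, Pcdh9, Cdh11 and Pcdhga5 were lower. The background was 20.7% of genes higher and 4.95% lower. The median log2 ratio was 0.35 over the 30 members and 0.17 over all genes. Scaling by trimmed mean of M-values (TMM), which centres most genes, moved the split from 8 higher and 4 lower to 4 higher and 5 lower. The members that no longer met the rule were Cdh2, Pcdhga2, Pcdhgb4 and Pcdhga9, and Pcdh18 was added to the lower ones. Over all kept cells 8 of 28 members differed, 5 higher and 3 lower, where 23.9% of all genes did, 19.4% higher and 4.48% lower. In Myog+ cells 5 of 25 members differed, 3 higher and 2 lower, where 22.8% of all genes did, 17.7% higher and 5.1% lower. The share that differed in either direction is near the background. In muscle-rich cells 10 of 24 differed, 2 higher and 8 lower, where 24.1% of all genes did, 15% higher and 9.08% lower. The median log2 ratio in muscle-rich cells was −0.79 over the members and 0.03 over all genes.

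Pcdh15 (ENSMUSG00000052613) encodes a protocadherin of the tip links between the stereocilia of inner ear hair cells. In MyoD-WT it stood at 8.65 CPM in Pax7+, 5.72 in Myog+ and 1.23 in muscle-rich cells. In MyoD-KO it stood at 604, 253 and 30.3 CPM. The 2 libraries were apart in every gate, and within each library the level was highest in Pax7+ and lowest in muscle-rich cells. The MyoD-KO level was 69.9 times the MyoD-WT level in Pax7+ cells (95% interval of the count ratio 66.3 to 73.7), 44.2 times in Myog+ cells (38.7 to 50.8) and 24.6 times in muscle-rich cells (19.2 to 32.1). Among cells in no gate it stood at 557 CPM in MyoD-KO and 5.68 CPM in MyoD-WT, a ratio of 97.9.

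Many MyoD-KO cells carried Pcdh15 rather than a few. With every cell thinned to 5000 UMIs, 61.3% of MyoD-KO Pax7+ cells had at least 1 Pcdh15 UMI against 2.91% of MyoD-WT Pax7+ cells, and without thinning the shares were 80.9% and 9.91%. The muscle-rich shares were 5.98% in MyoD-KO and 0.407% in MyoD-WT after thinning. For comparison, Myog, which the gate holds below 200 CPM but does not exclude, had UMIs in 11.7% of MyoD-KO and 8.51% of MyoD-WT Pax7+ cells at the same depth. Without thinning these shares were 53.9% and 43.1%. They can include Myog RNA of the cells themselves, so they are not a measure of background alone. The MyoD-WT UMIs were unevenly spread. There, 101 of 7316 cells had 5 or more Pcdh15 UMIs and held 59.3% of the gene's UMIs in that library, with up to 45 UMIs in a cell. Of these cells 82 were Pax7+, all 101 carried Y-linked UMIs, at 198 CPM against 185 CPM in cells with no Pcdh15, and none had a barcode found in both libraries. In them Cdh23 stood at 19.8 CPM against 8.13 in cells without Pcdh15, Pcdh9 at 38.8 against 14.7 CPM and Pcdh19 at 9.38 against 1.40 CPM. Cdh2, at 27.4 against 14.4 CPM, and Pcdh7, Cdh13, Pcdh17 and Pcdh18 were also higher in them. Cdh6, at 27.7 against 49.2 CPM, and Cdh11, at 23.5 against 31.8 CPM, were the other way round. The 101 cells also held more Pax7, at 193 against 109 CPM, and more Col3a1, at 125 against 64.0 CPM. The part of either in these differences was not tested. Cells without Pcdh15 include Myog+ and muscle-rich cells, so these comparisons are not matched by gate. Cdh23 encodes the partner of Pcdh15 in the tip link. Cdh23 itself stood at 10.9, 5.04 and 2.47 CPM in MyoD-WT Pax7+, Myog+ and muscle-rich cells and at 15.7, 5.28 and 1.80 CPM in MyoD-KO, and differed less than 2-fold between libraries in each gate.

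Pcdh19 (ENSMUSG00000051323), an X-linked protocadherin that can pair with N-cadherin, was also higher in MyoD-KO. It stood at 1.57, 0.679 and 0.559 CPM in MyoD-WT Pax7+, Myog+ and muscle-rich cells and at 22.4, 2.39 and 2.77 CPM in MyoD-KO. The libraries were apart in each gate, at 14.3-fold (12.6 to 16.3), 3.52-fold (2.25 to 5.68) and 4.95-fold (3.30 to 7.67). After thinning, 9.33% of MyoD-KO and 0.744% of MyoD-WT Pax7+ cells had a UMI, and 21.9% and 2.79% of cells in no gate. The Pax7+ shares are below the thinned Myog shares given above, although in MyoD-KO Myog+ cells the Pcdh19 share was only 1.13%. How much of the Pcdh19 shares is background was not measured. The unthinned shares of Pax7+ cells were 35.2% and 3.12%.

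**Figure D2:**
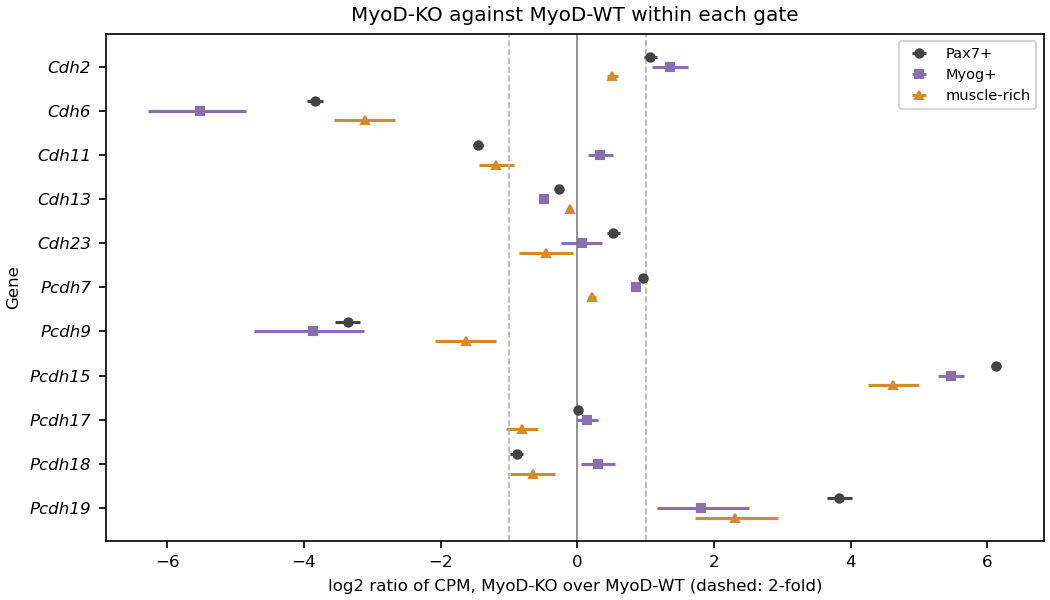
log2 ratio of CPM in MyoD-KO over MyoD-WT for the same 11 members in Pax7+ (circles), Myog+ (squares) and muscle-rich cells (triangles), with 95% intervals of the count ratio and dashed lines at 2-fold. Pcdh15 and Pcdh19 lie right of the 2-fold line and Cdh6 and Pcdh9 left of it in all 3 gates, while Cdh11 lies on opposite sides of 0 in Pax7+ and Myog+ cells.

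Cdh6, Pcdh9 and Cdh11 were lower in MyoD-KO Pax7+ cells. Cdh6 (ENSMUSG00000039385), a type II cadherin known from kidney and neural crest, stood at 66.4, 22.8 and 8.15 CPM in MyoD-WT Pax7+, Myog+ and muscle-rich cells. In MyoD-KO it stood at 4.64, 0.50 and 0.949 CPM. The 6 levels did not overlap between libraries, and the ratios were 0.0700 (0.0643 to 0.0760), 0.0219 and 0.116. Pcdh9 (ENSMUSG00000055421), a non-clustered protocadherin best known in the nervous system, stood at 21.5, 6.09 and 3.49 CPM in MyoD-WT and at 2.10, 0.417 and 1.13 CPM in MyoD-KO. Its ratios were 0.0978, 0.0685 and 0.323. Cdh11 (ENSMUSG00000031673), a type II cadherin of mesenchymal cells and fibroblasts, stood at 41.8, 11.2 and 8.31 CPM in MyoD-WT and at 15.3, 14.2 and 3.66 CPM in MyoD-KO. It was 0.366 times the MyoD-WT level in Pax7+ cells (0.348 to 0.385) and 0.440 times in muscle-rich cells, but 1.27 times in Myog+ cells. The Myog+ ratio is within 2-fold. It was 0.902 (0.723 to 1.12) in Myog+ cells that also met the Pax7 limits and 1.71 (1.43 to 2.05) in those that did not. In muscle-rich cells with 2 to 5% of UMIs in sarcomere genes the ratio was 0.698 (0.501 to 0.955). At 5 to 10% it was 0.950 (0.736 to 1.22), and at 10% or more 0.609 (0.300 to 1.31), all nearer 1 than in the whole gate. The difference between these ratios was not tested. The sarcomere groups include 11 MyoD-KO cells that carry the fibroblast genes Dcn or Twist2 by the rule given below, against 0 in MyoD-WT. Without the 11, Cdh11 stood at 2.28 CPM in MyoD-KO muscle-rich cells, against 8.31 CPM in MyoD-WT. Ratios by sarcomere group are not given without them.

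The MyoD-KO UMIs of Cdh6 and Pcdh9 lay in few cells, and many of the cells with most Cdh6 carried fibroblast genes. Pcdh9 UMIs were in 3.39% of MyoD-KO cells against 18.0% of MyoD-WT cells. Cdh11 UMIs were more widely spread, in 21.1% of MyoD-KO and 42.6% of MyoD-WT cells. In MyoD-KO, 97 of 5638 cells had 5 or more Cdh6 UMIs and held 79.5% of them, and the 5% of cells with most Cdh6 held 96.6%. In MyoD-WT 1024 of 7316 cells had 5 or more, and the 5% of cells with most held 38.9%. Of the 97 cells, 66 were in no gate, 29 were Pax7+ and 72 had at least 2 UMIs and 50 CPM of Dcn or of Twist2, both genes of fibroblasts. In these 97 cells Cdh11 stood at 222 CPM against 12 CPM in MyoD-KO cells with no Cdh6, Pcdh9 at 82.3 against 2.02 CPM and Pcdh19 at 82.1 against 18.3 CPM. Dcn stood at 435 against 3.02 CPM. Pcdh15 stood at 396 against 425 CPM. The cells with no Cdh6 also include Myog+ and muscle-rich cells, so these comparisons are not matched by gate. MyoD-KO Pcdh15 stood at 604 CPM in all Pax7+ cells. In cells of no gate it stood at 564 CPM with Dcn or Twist2 and 552 CPM without, so 396 CPM is lower than these.

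The same genes were high in those MyoD-KO cells in no gate that met the Dcn or Twist2 rule. These were 206 of 684 cells, against 9 of 789 in MyoD-WT. In the 206 cells Cdh6 stood at 149 CPM against 3.97 CPM in the rest of that group. Cdh11 stood at 186 against 15.7 CPM, Pcdh9 at 84.8 against 6.07 CPM and Pcdh19 at 135 against 44.1 CPM. In the 9 MyoD-WT cells these genes were also higher than in the rest of their group. There Cdh11 stood at 227 against 36.5 CPM, Pcdh9 at 150 against 17.5 CPM, Pcdh19 at 227 against 4.04 CPM and Cdh6 at 85.2 against 58.9 CPM. In MyoD-KO, Pcdh15, at 564 and 552 CPM, and Pcdh7, at 599 and 506 CPM, were similar in size with and without Dcn or Twist2. With the Dcn or Twist2 cells left out, MyoD-KO Pax7+ cells held Cdh6 at 3.46, Pcdh9 at 1.62, Cdh11 at 14 and Pcdh19 at 20.8 CPM, and the number of members that differed from MyoD-WT Pax7+ cells was again 12. In MyoD-KO muscle-rich cells, of which 11 met the rule, leaving those out lowered Cdh6 from 0.949 to 0.182 CPM, Pcdh9 from 1.13 to 0.0807 CPM, Cdh11 from 3.66 to 2.28 CPM and Pcdh19 from 2.77 to 1.57 CPM. In cells of no gate 12 of 30 members differed between the libraries, all higher in MyoD-KO, where 31.2% of all genes differed, 23.4% higher and 7.82% lower.

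**Figure D3:**
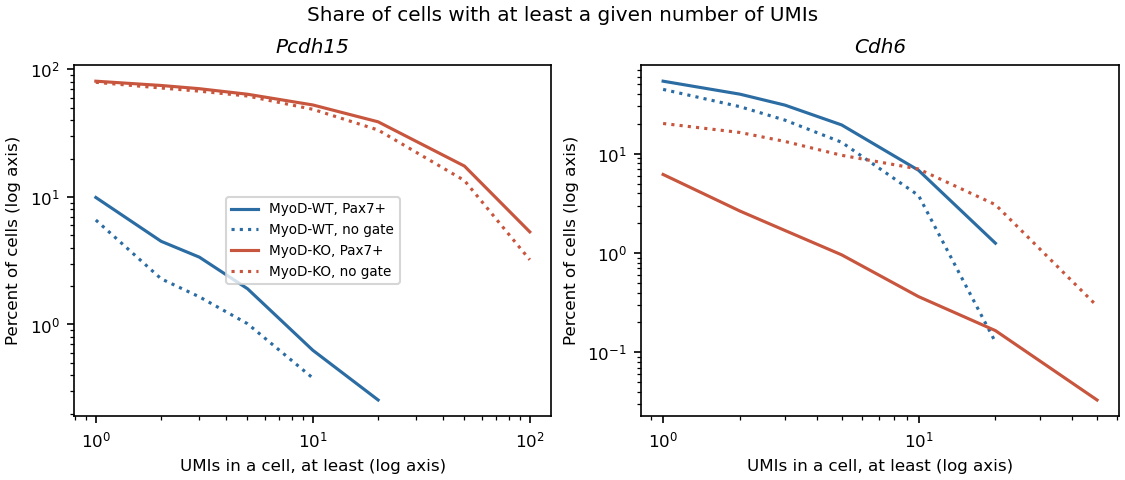
Percent of cells with at least the given number of Pcdh15 (left) or Cdh6 (right) UMIs, both axes log, in Pax7+ cells (solid) and cells in no gate (dotted) of each library. For Pcdh15 both MyoD-KO lines run far above the MyoD-WT lines, whereas for Cdh6 the MyoD-KO Pax7+ line is lowest up to 10 UMIs and the MyoD-KO cells in no gate cross the MyoD-WT lines at high UMI numbers. At 20 UMIs or more the Cdh6 share was 0.165% in MyoD-KO Pax7+ cells and 0.127% in MyoD-WT cells in no gate.

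Cdh13, Pcdh7, Pcdh17 and Pcdh18 differed less than 2-fold between the libraries in each of the 3 gates. Cdh13 (ENSMUSG00000031841), T-cadherin, which is held by a lipid anchor and is a known receptor of adiponectin, stood at 755, 878 and 387 CPM in MyoD-WT Pax7+, Myog+ and muscle-rich cells. In MyoD-KO it stood at 628, 627 and 360 CPM. The ratios, 0.832, 0.715 and 0.929, were within 2-fold. By sarcomere share of the muscle-rich cells, the Cdh13 ratio lay on the other side of 1. It was 1.18 (1.13 to 1.23) at 2 to 5%, 1.22 (1.18 to 1.26) at 5 to 10% and 1.11 (1.05 to 1.17) at 10% or more. Pcdh7 (ENSMUSG00000029108), a non-clustered protocadherin, stood at 319, 130 and 74.1 CPM in MyoD-WT and at 620, 236 and 86.1 CPM in MyoD-KO. Its ratio of 1.94 in Pax7+ cells (1.92 to 1.96) lay just below the 2-fold line, and in cells of no gate it was 2.46. Pcdh17 stood at 45.1, 16.8 and 8.09 CPM in MyoD-WT and at 45.5, 18.6 and 4.63 CPM in MyoD-KO, nearly equal in Pax7+ cells. Pcdh18 stood at 18.8, 6.58 and 3.91 CPM in MyoD-WT and at 10.2, 8.11 and 2.49 CPM in MyoD-KO, also within 2-fold.

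Between Pax7+ and muscle-rich cells, Cdh2 was the only member that was higher in muscle-rich cells, in both libraries, and the other members that differed were lower. In MyoD-WT 13 of 25 members differed at least 2-fold, 12 of them lower in muscle-rich cells, where 41.8% of all genes differed and 27.4% were lower. In MyoD-KO 23 of 30 differed, 22 of them lower, where 48% of all genes differed and 35.4% were lower. The median log2 ratio over all genes was itself −0.44 in MyoD-WT and −0.57 in MyoD-KO, and the members' medians were −0.96 and −1.73. Sarcomere genes took 6.51% of UMIs in MyoD-WT and 9.86% in MyoD-KO muscle-rich cells. TMM scaling left 10 and 18 members past the rule. In Myog+ against Pax7+ cells 9 of 25 members were lower and 0 higher in MyoD-WT, where 14% of all genes differed, 8.2% lower and 5.81% higher. In MyoD-KO 7 of 30 were lower and 0 higher, where 18.2% of all genes differed, 12.7% lower and 5.56% higher. From Myog+ to muscle-rich cells 6 of 24 members differed in MyoD-WT, 1 higher and 5 lower. Of all genes 30.2% did, 13.1% higher and 17.1% lower. In MyoD-KO 14 of 24 differed, 2 higher and 12 lower, where 41.9% of all genes did, 13.2% higher and 28.6% lower. The 2 higher were Cdh2 and Pcdh9, the latter at 1.13 against 0.417 CPM. Without cells that carry Dcn or Twist2, Pcdh9 stood at 0.0807 against 0.417 CPM. With 1 library per genotype these counts have no test.

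Cdh2 (ENSMUSG00000024304) stood at 9.50 CPM in Pax7+, 4.44 in Myog+ and 39.8 in muscle-rich cells of MyoD-WT. In MyoD-KO it stood at 19.9, 11.4 and 56.8 CPM. In each library the Myog+ level was the lowest and the muscle-rich level the highest. The muscle-rich level was 4.19 times the Pax7+ level in MyoD-WT (3.92 to 4.48) and 2.85 times in MyoD-KO (2.70 to 3.01), and 8.97 and 5.00 times the Myog+ level. After thinning, 15.7% of muscle-rich cells had a Cdh2 UMI in MyoD-WT and 19.4% in MyoD-KO, against 4.82% and 9.23% of Pax7+ cells. Between the libraries Cdh2 was 2.10 times higher in MyoD-KO Pax7+ cells (1.97 to 2.24) and 2.56 times in Myog+ cells (2.13 to 3.08), and 1.43 times in muscle-rich cells. Cdh15, which is no member, stood at 99.7, 111 and 153 CPM in MyoD-WT and 213, 164 and 126 CPM in MyoD-KO, so its order over the gates was opposite in the 2 libraries.

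A finer division of the gates places these levels by how much sarcomere RNA a cell held. The muscle-rich gates differ in this, since 608 of 1108 MyoD-KO cells and 229 of 1260 MyoD-WT cells had 10% or more of their UMIs in sarcomere genes. In MyoD-WT, Cdh2 stood at 2.89 CPM in Myog+ cells below the Pax7 limits of the Pax7+ gate and at 21.0, 47.9 and 60.1 CPM in cells with 2 to 5%, 5 to 10% and 10% or more sarcomere UMIs. In MyoD-KO it stood at 11.1, 43.4, 77.2 and 42.6 CPM in the same groups, with its highest value in the 5 to 10% group. The MyoD-KO level was 2.07 times the MyoD-WT level at 2 to 5%, 1.61 times at 5 to 10% and 0.709 times at 10% or more (0.631 to 0.797), so the direction between libraries turned. Pcdh15 in MyoD-KO stood at 510 CPM in Myog+ cells that also met the Pax7 limits, 160 CPM in those that did not and 10.9 CPM at 10% or more. Cdh13 in MyoD-WT stood at 881 CPM in Myog+ cells below the Pax7 limits and 254 CPM at 10% or more, and in MyoD-KO at 637 and 283 CPM. Pcdh7 was 1.54 to 2.14 times higher in MyoD-KO in each of the 6 groups.

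**Figure D4:**
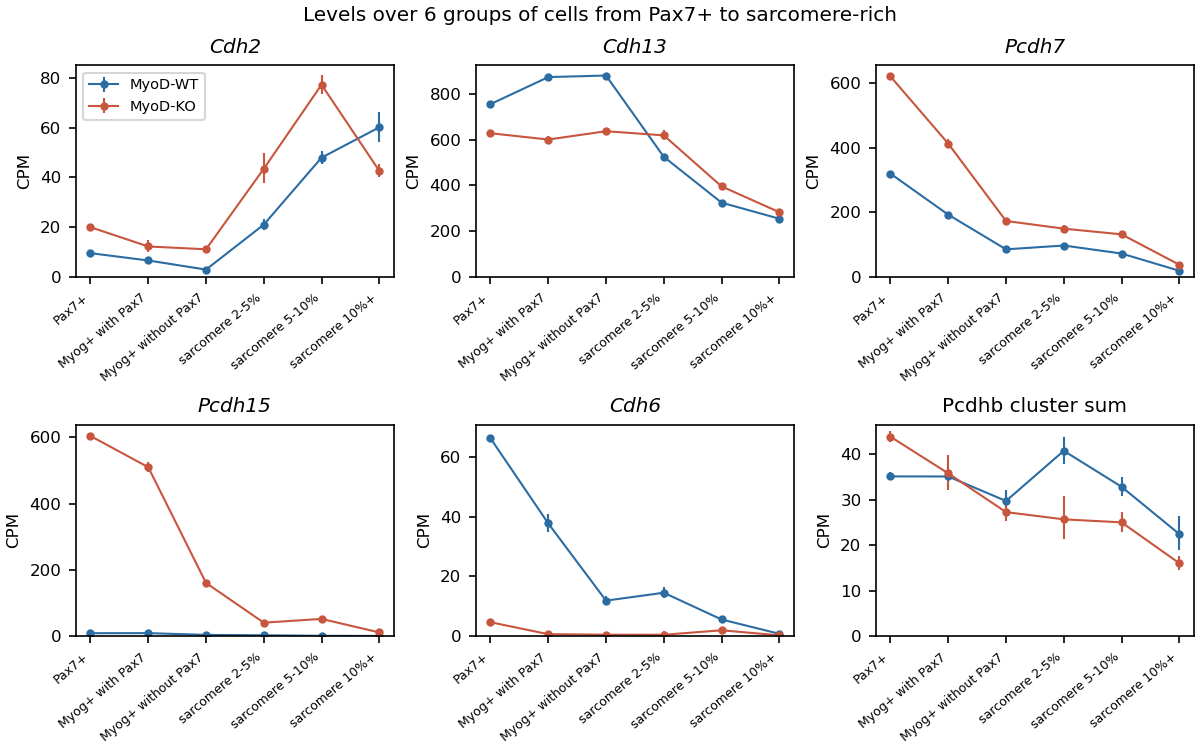
CPM (linear axes from 0, 95% Poisson intervals) of Cdh2, Cdh13, Pcdh7, Pcdh15, Cdh6 and the summed Pcdhb genes over 6 groups of cells, from Pax7+ to cells with 10% or more sarcomere UMIs, in each library. Cdh2 is lowest in Myog+ cells and high in sarcomere-rich cells, whereas Pcdh7, MyoD-KO Pcdh15 and MyoD-WT Cdh6 are highest in Pax7+ cells.

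The other members at 10 CPM or more were lower in muscle-rich than in Pax7+ cells, with 2 exceptions. The muscle-rich to Pax7+ ratio was 0.143 in MyoD-WT and 0.0502 in MyoD-KO for Pcdh15, 0.123 and 0.204 for Cdh6, and 0.180 and 0.102 for Pcdh17. Without cells that carry Dcn or Twist2, MyoD-KO Cdh6 stood at 0.182 against 3.46 CPM, with 11 muscle-rich and 39 Pax7+ cells fewer. For Pcdh7 it was 0.232 and 0.139, for Cdh23 0.226 and 0.114, for Pcdh18 0.208 and 0.245, and for Cdh11 0.199 and 0.239. Pcdh19 stood at 0.356 and 0.123 times. Cdh13 was the first exception, at 0.512 and 0.573 times, within 2-fold. Pcdh9 was the other, lower in MyoD-WT, at 0.162 times, and within 2-fold in MyoD-KO, where it stood at 0.0807 against 1.62 CPM once cells with Dcn or Twist2 were left out. Cdh24, a type II cadherin with at most 2.73 CPM in any gate, stood at 0.473 and 0.297 times.

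Of the clustered genes, Pcdhb and Pcdhg RNA was counted in many cells and Pcdha RNA in hardly any. The 22 Pcdhb genes summed to 35.2, 32.0 and 34.4 CPM in MyoD-WT Pax7+, Myog+ and muscle-rich cells and to 43.9, 29.6 and 20.6 CPM in MyoD-KO. The 22 Pcdhg genes summed to 21.2, 19.6 and 13.1 CPM in MyoD-WT and to 28.8, 19.9 and 7.65 CPM in MyoD-KO. Over the gates of MyoD-WT the Pcdhb sum had a muscle-rich to Pax7+ ratio of 0.978 (0.927 to 1.03), and in MyoD-KO the ratio was 0.469 (0.439 to 0.502). Within the MyoD-WT muscle-rich gate the sum was 40.8 CPM at 2 to 5%, 32.9 at 5 to 10% and 22.5 at 10% or more sarcomere UMIs, and in MyoD-KO it was 25.7, 25.0 and 16.0 CPM. The 10% or more group, as given above, holds more of the MyoD-KO gate. For Pcdhg the same ratios were 0.618 and 0.266. Between libraries the muscle-rich Pcdhb sum was 0.599 times as high in MyoD-KO, and within the 2 to 5%, 5 to 10% and 10% or more groups it was 0.630, 0.762 and 0.714 times. The muscle-rich Pcdhg sum was 0.585 times as high, and 0.398, 0.947 and 0.795 times in those groups. The 14 Pcdha genes gave 26 UMIs in MyoD-WT and 59 in MyoD-KO. In GENCODE M21 models (GRCm38), all 13 Pcdha and all 22 Pcdhg genes with a model share a last exon with another gene of the cluster, against 2 of 22 Pcdhb genes. A 3′ read in a shared exon cannot name its gene, so the Pcdha and Pcdhg values are uncertain; how the authors' counting treated such reads is not given in the sources used here.

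Within the clusters, the last genes of each held most of the UMIs. Pcdhb14 to Pcdhb22 held 91.4% of the Pcdhb sum in MyoD-WT Pax7+ cells and 91.7% in MyoD-KO, and none of Pcdhb1 to Pcdhb13 was above 0.848 CPM there. Pcdhb21 led with 6.02 CPM in MyoD-WT and 7.86 CPM in MyoD-KO, followed by Pcdhb17 at 5.32 and 6.5 CPM and Pcdhb16 at 5.10 and 6.94 CPM. Pcdhb15 lay in the same stretch at 0.343 and 0.350 CPM. None of the Pcdhb genes at 1 CPM or more differed 2-fold in Pax7+ cells. In the Pcdhg cluster the C-type genes Pcdhgc3, Pcdhgc4 and Pcdhgc5 stood at 4.51, 4.36 and 2.80 CPM in MyoD-WT and at 4.88, 4.64 and 3.46 CPM in MyoD-KO. Most of the genes that differed were at under 1 CPM in MyoD-WT. Pcdhga1 was 7.05 times higher in MyoD-KO Pax7+ cells (4.72 to 10.9), Pcdhga2 5.06 times, Pcdhga6 2.86 times, Pcdhgb4 2.20 times and Pcdhga9 2.00 times. Pcdhga5, with 12.1% of the Pcdhg sum in MyoD-WT, was 0.481 times as high, at 1.23 against 2.56 CPM. In muscle-rich cells Pcdhb18, Pcdhb19, Pcdhga5, Pcdhgc4 and Pcdhgc5 were lower in MyoD-KO, at 0.342 to 0.489 times the MyoD-WT level. At 2 to 5%, 5 to 10% and 10% or more sarcomere UMIs, Pcdhgc4 stood at 0.359, 1.05 and 0.708 times. In the same groups Pcdhgc5 stood at 0.540, 1.02 and 0.313 times and Pcdhb19 at 0.935, 0.482 and 0.435 times. Pcdhb18 stood at 0.273, 0.432 and 0.375 times and Pcdhga5 at 0.258, 0.540 and 0.365 times. Some of these ratios rest on few UMIs, down to 2 in MyoD-KO for Pcdhga5.

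UMIs of several Pcdhb genes were often counted in 1 cell, as the spread of UMIs over the genes would also give. At least 1 Pcdhb UMI was found in 64.9% of MyoD-WT and 66.7% of MyoD-KO cells, and of the cells with 2 or more Pcdhb UMIs, 89.5% and 88.7% held UMIs of at least 2 different genes. The highest number in a cell was 9 genes in MyoD-WT and 7 in MyoD-KO. For Pcdhg the share with at least 2 genes was 89.0% and 92.8%. These shares are not thinned and include free RNA and any doublets left in. The leading Pcdhb gene held only 17.5% of the cluster's UMIs in MyoD-WT and 17.7% in MyoD-KO. The leading Pcdhg gene held 20.3% and 16.7%. Any 2 UMIs drawn without regard to the cell would therefore mostly come from different genes. Whether cells combine genes otherwise than by such draws was not tested.

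**Figure D5:**
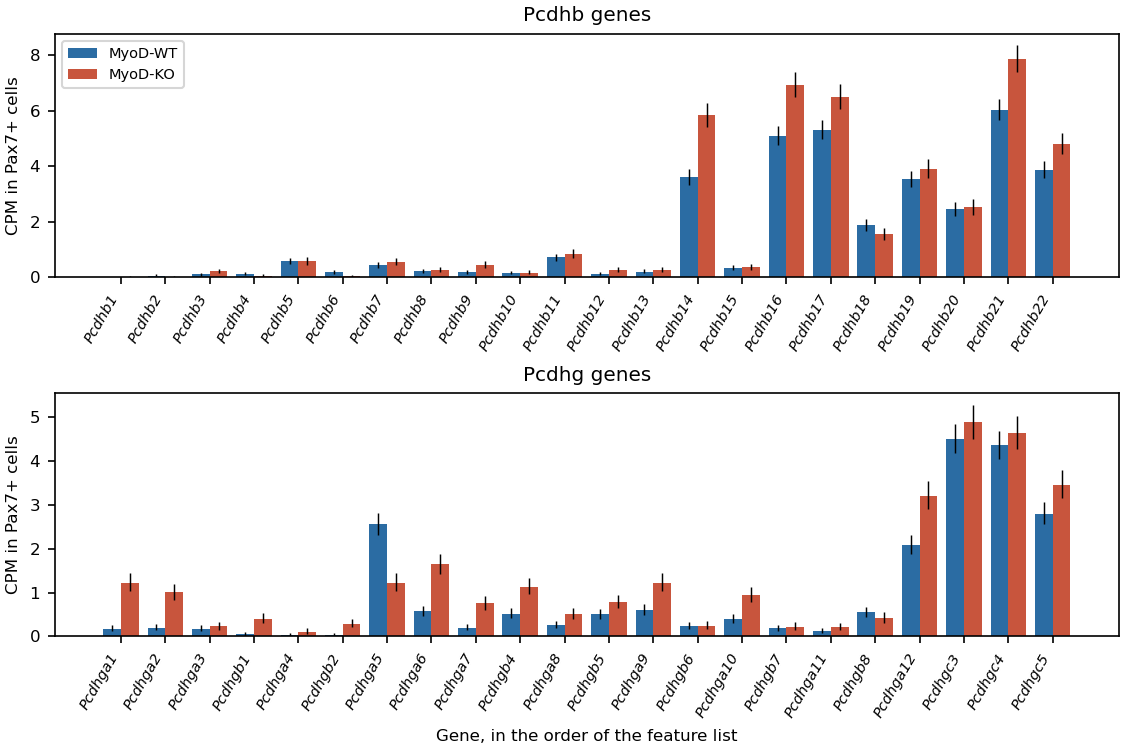
CPM of each Pcdhb (top) and Pcdhg gene (bottom) in Pax7+ cells of MyoD-WT and MyoD-KO, in the order of the feature list, bars from 0 with 95% Poisson intervals. Pcdhb14 and Pcdhb16 to Pcdhb22 and the last 4 Pcdhg genes stand above most others in both libraries, and Pcdhga5 is lower in MyoD-KO, at 1.23 against 2.56 CPM.

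Genes that act with cadherins were counted by the same rule. Of the cadherin-catenin complex, 12 of 13 genes reached 1 CPM in Pax7+ cells, of which 1 was higher and 1 lower in MyoD-KO, beside 20.7% and 4.95% of all genes. Jup, plakoglobin, stood at 33.9 CPM against 4.06 CPM in MyoD-WT, and Ctnnd2, delta-catenin, at 0.389 against 2.17 CPM. In muscle-rich against Pax7+ cells 5 of 12 were higher in MyoD-WT, beside 14.3% of all genes, among them Ctnna3, an alpha-catenin of heart and muscle, at 30.9 against 1.34 CPM, and Lima1, an actin-binding protein linked to the complex, at 242 against 46.0 CPM. In MyoD-KO 2 of 11 were higher, Ctnna3 at 24.7 against 1.13 CPM and Lima1 at 210 against 62.1 CPM, and 4 were lower, with Ctnnb1, beta-catenin, at 71.9 against 158 CPM. Of all genes 12.6% were higher and 35.4% lower in that comparison. Only 2 of 13 desmosomal genes reached 1 CPM in Pax7+ cells. Pkp1 stood at 13.1 CPM in MyoD-KO against 0.884 CPM, and Pkp2 at 2.31 against 5.80 CPM. Of 18 other genes of the cadherin superfamily 5 were at this level, and Clstn2, a calsyntenin, was lower in MyoD-KO at 11.9 against 77.5 CPM.

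Among 7 transcription factors known to act on cadherin genes in epithelial-mesenchymal transition, Snai1, Twist1 and Twist2 were higher in MyoD-KO Pax7+ cells, where 20.7% of all genes were. Twist2 is also one of the genes by which cells with fibroblast genes were picked out above. Snai1 stood at 18.4 against 8.0 CPM. Among 7 proteases that cut or activate the cutting of cadherins, Mmp14 at 68.4 against 10.5 CPM, Furin at 22.5 against 4.59 CPM and Adam10 at 99.4 against 45.1 CPM were higher, beside the same 20.7%. Of 17 regulators of the protocadherin clusters, which include Ctcf, cohesin subunits and DNA methyltransferases, 0 were higher and 2 lower in MyoD-KO Pax7+ cells, Dnmt3a at 31.9 against 65.5 CPM and Dnmt3b at 3.81 against 8.01 CPM. In muscle-rich against Pax7+ cells 10 of these 17 were lower in MyoD-WT, where 27.4% of all genes were, and 11 in MyoD-KO, where 35.4% were, with Ctcf at 52.1 against 167 CPM and at 34.7 against 119 CPM.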

How the data were processed

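Cells of 2 iMPC clones were profiled with a 3′ droplet kit. The deposited matrices hold UMI counts per gene and cell, written by Cell Ranger 7.2.0 per the file headers. Cell Ranger, Seurat and GRCm39 are named in the submitters' processing notes, and the annotation release and the treatment of intronic reads are not given in the sources used here. The files held 8191 MyoD-WT and 7670 MyoD-KO barcodes. Cells with at least 1000 genes and at most 15% mitochondrial UMIs were kept, and doublets called by Scrublet (scanpy 1.11.5, expected rate 0.06) were left out, 2 in MyoD-WT and 144 in MyoD-KO, leaving 7316 and 5638 cells with 279006808 and 240970199 UMIs. UMIs were summed per gate and scaled to CPM, with exact 95% Poisson intervals for levels, conditional binomial intervals for ratios and Clopper-Pearson intervals for shares. No test was made, as each genotype has 1 library and cells are not replicates. Genes past 2-fold with at least 1 CPM in the higher group were counted as differing, and genes at 1 CPM in either group were the background. The call was run on Poisson counts simulated from the pooled Pax7+ levels, with 200 genes changed 3-fold. It found 100 raised and 100 lowered genes and called 0 of 11883 unchanged ones. The simulated counts had no variation between clones or cells, so this checks only the working of the rule. Shares were taken after thinning to 5000 UMIs, which left out 80 MyoD-WT and 169 MyoD-KO cells. Alternatives were TMM scaling (edgeR 4.0.16), the mean over cells, all barcodes, the top 6% of doublet scores removed, 3-fold, 10 CPM, stricter and looser gates, thinning, and 2 rules that leave out cells with fibroblast genes, of which the Dcn or Twist2 rule was chosen after seeing the data. Members at 10 CPM or more in any gate are named with all values, and others at 1 CPM where they differed, at most 12 per comparison. The members, gates and lists were chosen with earlier results of these data known. The finer groups by sarcomere share were added after the gate values were seen.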

Additional observations from a re-analysis of the deposited data

Results flagged for a closer look

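The Cdh11 ratio between the libraries lay on opposite sides of 1 by gate. Its MyoD-KO to MyoD-WT ratio was 0.366 in Pax7+ cells and 1.27 in Myog+ cells, and it was 1.27 in Myog+ against 0.44 in muscle-rich cells. The Myog+ ratio is within 2-fold, and was 0.902 in Myog+ cells that also met the Pax7 limits and 1.71 in those that did not. The muscle-rich gates differ in sarcomere share, and within groups of that share the Cdh11 ratio was nearer 1. It was 0.698 at 2 to 5% sarcomere UMIs, 0.950 (0.736 to 1.22) at 5 to 10% and 0.609 (0.300 to 1.31) at 10% or more. These groups include 11 MyoD-KO cells with Dcn or Twist2, against 0 in MyoD-WT. Without the 11, Cdh11 stood at 2.28 CPM in MyoD-KO muscle-rich cells, against 8.31 CPM in MyoD-WT, so the groups do not settle how far sarcomere share bears on the ratio. The Pcdhgc5 ratio also lay on opposite sides of 1, at 1.24 in Pax7+ cells and 0.484 in muscle-rich cells. By the same sarcomere groups it was 0.540 (0.166 to 1.38), 1.02 (0.555 to 1.84) and 0.313 (0.0796 to 1.30). With 1 library per genotype the difference between gates was not tested for either gene.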

How the results depend on the processing

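Over 9 alternatives, 616 log2 ratios of named members that met the size rule were recomputed: 560 kept their direction and stayed past the rule, 55 kept their direction but no longer met it, and 1 turned. That was Pcdhga6 in all kept cells, at −0.27 without cells of 200 CPM over 7 fibroblast genes, a rule that takes 76.0% of MyoD-WT and 93.3% of MyoD-KO Pax7+ cells. A minimum of 10 CPM, which tests fewer genes, gave 4 members in all kept cells in place of 8, 6 in Pax7+ cells in place of 12, 3 in Myog+ cells in place of 5, 1 in muscle-rich cells in place of 10, and 8 in each library for muscle-rich against Pax7+ cells in place of 13 and 23. A 3-fold rule gave 6 in Pax7+ and 4 in muscle-rich cells. Thinning to 5000 UMIs gave 8 in Myog+ cells in place of 5, and the cause was not tested. Under TMM the median log2 ratio over all genes in MyoD-KO against MyoD-WT Pax7+ cells was −0.04, in place of 0.17. No paired analysis was possible because each genotype has 1 library, and for the same reason no library could be left out. Members under 1 CPM in both groups were left out by the size rule.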
